A study of Rattus norvegicus with 6 samples.

Results

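The genes described here are 9 members of the Fc receptor system of myeloid cells, measured in dorsal root ganglia (DRG) of the rat after injury of the sciatic nerve. They are the IgG receptors Fcgr1a, Fcgr3a and Fcgr2b, the shared signalling chain Fcer1g, the neonatal Fc receptor Fcgrt, and the kinases Syk, Lyn, Fgr and Fes. The members were chosen by symbol. Where several rows of the table carried 1 symbol, the protein-coding row came first and then the row with the most reads. All 9 were found among the 43350 gene rows, and all 9 were among the 26663 rows whose mean over the 6 libraries reached 0.5 FPKM (reads per kilobase of row length, scaled to the library's total), which were the rows tested. Fcgr3a, Fgr and Fcgr2b reached that limit with a sham mean under it.

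The study compared male Sprague-Dawley rats with a chronic constriction injury (CCI) with sham rats, 11 days after surgery. In the CCI group loose ligatures were placed around the left sciatic nerve. In the sham group, whose treatment the labels give as none, the nerve was exposed and left untied according to the methods. RNA of the L4-6 DRG on the operated side was sequenced after removal of ribosomal RNA, in 3 CCI and 3 sham libraries of 1 rat each. The methods add that rats were taken into each group by the behaviour expected of that group in pain tests, and were perfused with saline, while the library protocol speaks of a pooled sample. No age of the animals is given in the labels, and all 6 were intact animals without a transgene. In whole ganglia, fewer cells of a type and less RNA per cell cannot be told apart.

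Fc receptors bind the constant part of antibodies. Activating IgG receptors such as those encoded by Fcgr1a and Fcgr3a pair with the Fc receptor gamma chain (Fcer1g), whose activation motif, the ITAM, is phosphorylated by Src-family kinases and then recruits the kinase Syk, and the inhibitory receptor encoded by Fcgr2b opposes this signal through phosphatases. In DRG the known carriers of most of these molecules are resident and recruited macrophages, while some Fc gamma receptors have also been described on sensory neurons.

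The libraries held between 75423546 and 87615743 counted reads, so that 3 reads corresponded to 0.0342 to 0.0398 CPM (reads scaled to a common library total). Sham 1 stood apart from the other libraries in genes of other cell types. Its summed level of 7 skeletal muscle markers was 149 FPKM, against 4.37 to 21.3 FPKM in the other 5 libraries, and its summed level of 10 neutrophil markers was 33.6 FPKM, against 9.26 to 18.5 FPKM. Results of the members that rest on Sham 1 are therefore also given without it. CCI 1 differed as well. Its summed level of fibroblast markers was 389 FPKM, against 580 to 685 FPKM in the other 5 libraries, and its Schwann cell and endothelial sums were the lowest. Macrophage markers summed to 359 FPKM in CCI 1, against 261 and 263 FPKM in CCI 2 and CCI 3. Without CCI 1 the number of members called higher was 2. All 10 sensory neuron markers were tested, with a summed level of 4307 to 4828 FPKM in CCI and 4881 to 5126 FPKM in sham libraries.

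Fcgr1a, Fcgr3a, Fcgr2b, Lyn and Fes were upregulated in the CCI group, while Fcer1g, Fcgrt, Syk and Fgr did not pass the test. A gene was called higher when the unadjusted p of edgeR's quasi-likelihood test was under 0.05 and the log2 fold change was at least 0.58, the limits that the study used. By this rule 5 of 9 members were higher and 0 were lower, against 2.57% of all rows tested called higher and 1.26% called lower. Of the 5, Fcgr3a and Fcgr2b had sham means under the filter (0.357 and 0.496 FPKM), so that they were tested only because of their CCI values. In a fit without the filter the same 5 members were called. On leaving out 1 library the number of members called was 2 without CCI 1, 3 without CCI 3, Sham 1 or Sham 2, and 4 at most. The share of all rows called in those fits is not given here. In the main fit 2.4% of the protein-coding rows alone were called higher. The median log2 fold change was 0.61 over the 9 members and 0.01 over all rows tested. In 4 of 9 members every CCI library lay above every sham library, an order found in 8.63% of all rows.

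After Benjamini-Hochberg adjustment over all rows, the quasi-likelihood test of edgeR left 0 of 9 members under an adjusted p of 0.05, a limit passed by 0.0938% of rows. At an unadjusted p under 0.05 the number was 5, all of them higher. Of the 26663 rows tested, 1484 were higher and 1382 lower at that limit. DESeq2 gave 1 member, Lyn, with an adjusted p of 0.0456, while limma on log2 FPKM and edgeR's exact test gave 0. The share of all rows that passed in DESeq2 is not given here, and the 0.0938% is that of edgeR's quasi-likelihood test. Among the 9 members the highest library was CCI 1 for 3 genes, CCI 2 for 4 and CCI 3 for 2, and no member was highest in a sham library.

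**Figure D1:**
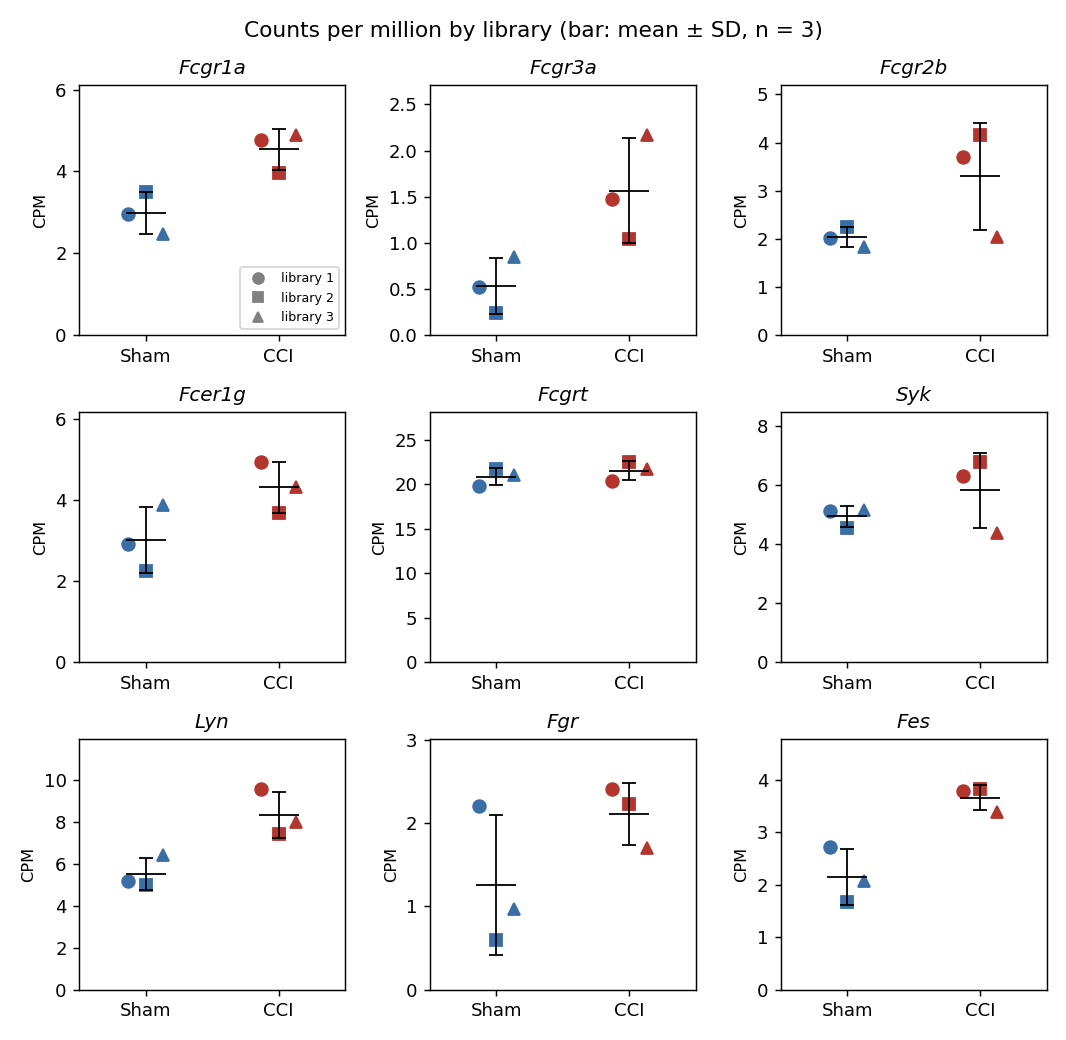
TMM-scaled CPM (y axis of each panel, starting at 0) of the 9 members in the 3 sham (blue) and 3 CCI (red) libraries, where a symbol gives the library number within its group and bars give the mean ± SD. The groups do not overlap for Fcgr1a, Fcgr3a, Lyn and Fes, while Fcgrt is level and Fgr is as high in Sham 1 as in the CCI libraries.

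For 5 of the 9 members a promoter was found in RefSeq (assembly GRCr8), from 250 bases before to 50 bases after the start of the gene, and 3 of them are shown because they set 2 called members beside the Fc receptor that was level. They were searched on both strands for GAGGAA, the core of the motif bound by the myeloid transcription factor PU.1. Capitals mark that core, or in Fcgr3a the longer form GAGGAAGT, which lies on the other strand and so reads as ACTTCCTC.
Fcgr3a, chr13:85782386-85782685, plus strand: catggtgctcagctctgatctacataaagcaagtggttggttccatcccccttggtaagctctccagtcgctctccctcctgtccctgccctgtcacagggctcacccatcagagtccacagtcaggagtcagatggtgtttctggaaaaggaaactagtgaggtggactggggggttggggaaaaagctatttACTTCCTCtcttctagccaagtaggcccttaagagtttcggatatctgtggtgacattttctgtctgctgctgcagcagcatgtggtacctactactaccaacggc
Fes, chr1:143756132-143756431, minus strand: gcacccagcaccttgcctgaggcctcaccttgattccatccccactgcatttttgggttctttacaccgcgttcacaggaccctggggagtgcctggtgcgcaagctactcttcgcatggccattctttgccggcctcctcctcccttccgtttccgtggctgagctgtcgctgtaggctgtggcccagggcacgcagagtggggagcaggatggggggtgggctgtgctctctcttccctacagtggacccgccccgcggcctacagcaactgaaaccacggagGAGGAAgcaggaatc
Fcgrt, chr1:104719977-104720276, minus strand: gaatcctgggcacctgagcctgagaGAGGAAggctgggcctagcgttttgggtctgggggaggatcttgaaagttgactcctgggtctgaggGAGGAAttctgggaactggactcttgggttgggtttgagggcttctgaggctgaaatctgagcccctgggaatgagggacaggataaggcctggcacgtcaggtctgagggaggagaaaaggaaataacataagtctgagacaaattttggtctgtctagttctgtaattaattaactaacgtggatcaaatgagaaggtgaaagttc

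The core was present in 4 of the 5 promoters, those of Fcgr3a, Fes, Fcgrt and Syk, and its letters were not in the window of Fgr. Of all 33469 promoters of the same length 27.6% held it. The longer form, which contains the core, was found in 1 of the 5, that of Fcgr3a, and in 2.42% of all promoters. Both Syk and Fcgrt, which did not pass the test, carried the core as did the called members Fcgr3a and Fes. Spi1, which encodes PU.1, had 3.15, 2.61 and 2.87 CPM in CCI 1, 2 and 3 and 1.64, 1.67 and 1.37 CPM in Sham 1, 2 and 3. It was called higher (log2 fold change 0.88 ± 0.18 SE, unadjusted p = 0.00203, adjusted p = 0.169 in edgeR). These matches describe the letters of the promoters, and binding was not measured.

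The activating receptors are described first. Fcgr1a, the high-affinity receptor for IgG, lies on chromosome 2 from 198430530 to 198458041 in the coordinates of the deposited table. It had 4.77, 3.96 and 4.89 CPM in CCI 1, 2 and 3 and 2.97, 3.50 and 2.48 CPM in Sham 1, 2 and 3. The 3 CCI libraries were all higher than the 3 sham libraries, by a narrow gap between CCI 2 and Sham 2. The mean was 4.54 ± 0.506 CPM in CCI and 2.98 ± 0.506 CPM in sham (SD, n = 3 each). This corresponded to a fold change of 1.52 with a 95% interval of 1.12 to 2.07 (unadjusted p = 0.0152, adjusted p = 0.323 in edgeR). The size of the change lay close to the limit of 0.58, and the log2 fold change fell under it without CCI 1 (0.57), without CCI 3 (0.55) or without Sham 3 (0.49).

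Fcgr3a, a low-affinity activating receptor for IgG, showed the largest fold change among the members. RefSeq lists this gene also as CD16-2 and Fcgr4, and gives the symbol Fcgr3a as another name of Fcgr2a, so that the names of rat low-affinity receptors differ between sources. Its reads numbered 120, 84 and 165 in CCI 1, 2 and 3 and 46, 19 and 70 in Sham 1, 2 and 3, or 1.48, 1.04 and 2.17 CPM against 0.524, 0.240 and 0.848 CPM. Every CCI library was above every sham library, although CCI 2 and Sham 3 were near each other and libraries of 1 group differed widely. The fold change was 2.90 with a 95% interval of 1.24 to 6.76 (unadjusted p = 0.0211, adjusted p = 0.359 in edgeR). The call was lost without CCI 3, where the log2 fold change was 1.23 and the unadjusted p 0.0721, and without Sham 1, where they were 1.52 and 0.0576.

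Fcgr2b encodes the inhibitory receptor for IgG. It had 3.70, 4.16 and 2.05 CPM in CCI 1, 2 and 3 and 2.03, 2.25 and 1.83 CPM in Sham 1, 2 and 3. CCI 1 and CCI 2 were above all sham libraries, while CCI 3 lay within their range. The fold change was 1.62 with a 95% interval of 1.01 to 2.61 (unadjusted p = 0.0469, adjusted p = 0.455 in edgeR), the weakest of the 5 calls. It was lost on leaving out CCI 1, CCI 2, Sham 1, Sham 2 or Sham 3, with log2 fold changes between 0.50 and 0.78, and it was kept without CCI 3 (0.95).

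The rows of Fcgr2b and Fcgr3a overlap. Fcgr2b spans 89327794 to 89433815 on the minus strand of chromosome 13, and the Fcgr3a row, from 89385859 to 89396051 on the plus strand, lies wholly within it. The library protocol marks strand, but whether strand was used in counting is not given in the sources used here, so the division of reads between these 2 genes is uncertain. CCI 3 was the highest of all libraries for Fcgr3a and the lowest CCI library for Fcgr2b. The part of the overlap in these values was not tested.

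Activating receptors were set against the inhibitory one as the summed FPKM of Fcgr1a and Fcgr3a over the FPKM of Fcgr2b. Fcgr2a, which RefSeq also lists as fc-gamma RIII, was left out of the sum. It had a mean of 1.40 FPKM in CCI and 1.29 FPKM in sham. The ratio is therefore not the whole balance of activating to inhibitory receptors. The ratio was 4.26, 3.01 and 8.76 in CCI 1, 2 and 3 and 4.29, 4.11 and 4.58 in Sham 1, 2 and 3. The sham libraries were close together, and the CCI libraries lay on both sides of them. On the log2 scale the groups differed by 0.16 (exact two-sided permutation test, p = 0.9), and without CCI 3 the difference was -0.27. With 3 libraries a group this test cannot go below 0.1.

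Fcer1g, the gamma chain through which the activating receptors signal, had 4.94, 3.69 and 4.33 CPM in CCI 1, 2 and 3 and 2.93, 2.25 and 3.89 CPM in Sham 1, 2 and 3. The groups overlapped, since Sham 3 was above CCI 2. Its fold change of 1.43 had a 95% interval of 0.959 to 2.13 (unadjusted p = 0.0719, adjusted p = 0.524 in edgeR). Without Sham 3 it was called, with a log2 fold change of 0.74 and an unadjusted p of 0.0199. Per summed FPKM of Fcgr1a and Fcgr3a, the FPKM of Fcer1g was 1.66 ± 0.222 in CCI and 2.04 ± 0.648 in sham (SD, n = 3 each; exact two-sided permutation test, p = 0.4).

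Fcgrt encodes the neonatal Fc receptor, which binds IgG inside endosomes, protects it from breakdown and carries it across cells, and does not signal through an ITAM. It had 20.4, 22.5 and 21.8 CPM in CCI 1, 2 and 3 and 19.8, 21.7 and 21.1 CPM in Sham 1, 2 and 3. The libraries of both groups covered the same range. The fold change was 1.03, and its 95% interval of 0.912 to 1.17 was the narrowest among the members (unadjusted p = 0.548 in edgeR).

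Of the 4 kinases, Lyn and Fes were higher in the CCI group, and Syk and Fgr did not pass the test. Syk, the kinase that binds phosphorylated ITAMs, had 6.31, 6.76 and 4.38 CPM in CCI 1, 2 and 3 and 5.13, 4.53 and 5.16 CPM in Sham 1, 2 and 3. CCI 1 and CCI 2 were above the sham range and CCI 3 was the lowest of all 6 libraries. The fold change was 1.18 with a 95% interval of 0.855 to 1.62 (unadjusted p = 0.262 in edgeR), which does not exclude a change of the size seen in Lyn.

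Lyn is a Src-family kinase of myeloid and B cells that acts on both activating and inhibitory receptors. It lies on chromosome 5 from 16526058 to 16642648. It had 9.56, 7.42 and 7.99 CPM in CCI 1, 2 and 3 and 5.19, 5.00 and 6.41 CPM in Sham 1, 2 and 3. All CCI libraries were above all sham libraries. The mean was 8.33 ± 1.11 CPM in CCI and 5.53 ± 0.766 CPM in sham (SD, n = 3 each), a fold change of 1.51 with a 95% interval of 1.15 to 1.96. Its unadjusted p of 0.00873 was the lowest of the members (adjusted p = 0.271 in edgeR). The log2 fold change of 0.59 was just past the limit and fell under it without CCI 1 (0.48), Sham 1 (0.55) or Sham 2 (0.52), and also when the reads of a small second row with this symbol were added (0.55).

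Fgr, another Src-family kinase of monocytes, macrophages and neutrophils, had 2.40, 2.22 and 1.70 CPM in CCI 1, 2 and 3 and 2.20, 0.593 and 0.969 CPM in Sham 1, 2 and 3. Sham 1 was as high as the CCI libraries and the other sham libraries were lower than all of them. The fold change over all libraries was 1.68 with a 95% interval of 0.757 to 3.72 (unadjusted p = 0.166 in edgeR). Without Sham 1 the log2 fold change was 1.43 and Fgr was called higher (unadjusted p = 0.0062 in edgeR). Sham 1 also had the most reads of the neutrophil genes S100a8 (525, against 132 to 248 elsewhere), S100a9 (606, against 124 to 298) and Ngp (489, against 138 to 200). The part of these cells, or of the muscle RNA in that library, in the value of Fgr was not tested.

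Fes, a cytoplasmic kinase of myeloid cells outside the Src family, lies on chromosome 1 from 142174648 to 142183884. It had 3.78, 3.82 and 3.39 CPM in CCI 1, 2 and 3 and 2.72, 1.67 and 2.08 CPM in Sham 1, 2 and 3. The CCI libraries were close together and all above the sham libraries. The mean was 3.67 ± 0.238 CPM in CCI and 2.16 ± 0.533 CPM in sham (SD, n = 3 each), a fold change of 1.70 with a 95% interval of 1.19 to 2.43 (unadjusted p = 0.0107, adjusted p = 0.288 in edgeR). It was the 1 member whose call held on leaving out each library in turn, with log2 fold changes of 0.61 to 0.97.

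**Figure D2:**
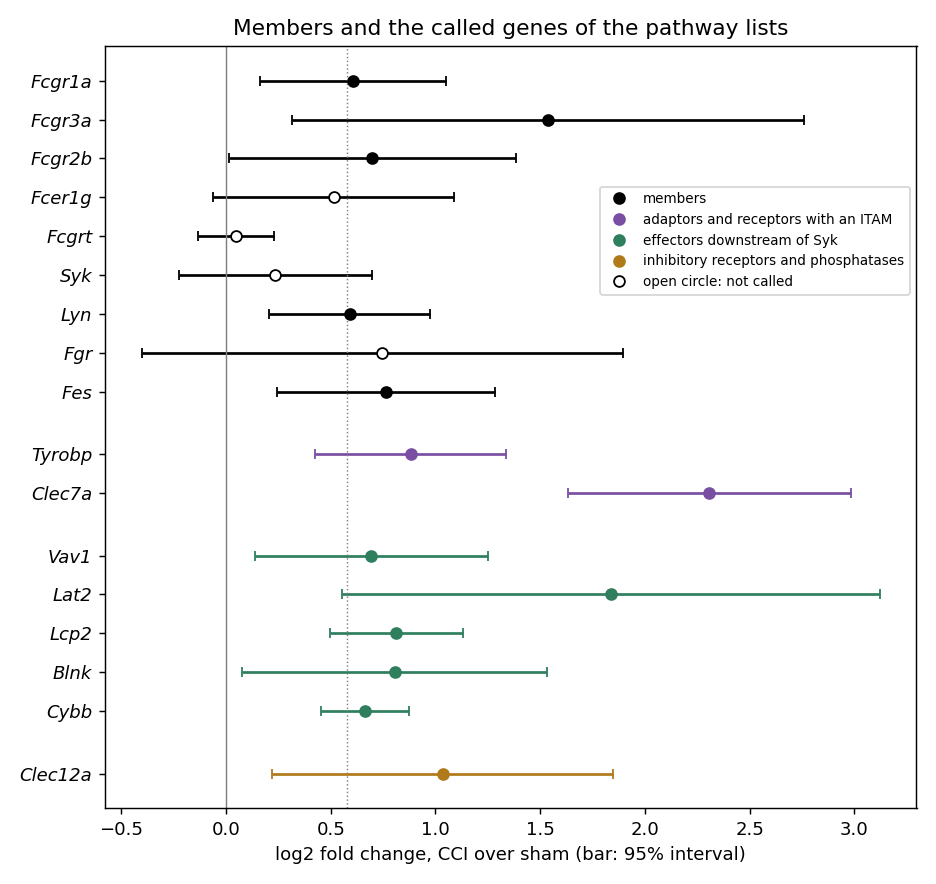
Log2 fold change of CCI over sham (x axis) of the 9 members (black) and of the 8 called genes of 3 pathway lists (colours), with 95% intervals from edgeR's fit, where open circles were not called and the dotted line marks 0.58. The intervals of Fcgr3a, Fgr and Lat2 are the widest, that of Fcgrt is the narrowest and crosses 0, and Clec7a lies highest at 2.31.

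On the per-length scale (FPKM), Fcgrt was the most abundant member, at 11.3 ± 0.588 FPKM in CCI and 10.8 ± 0.429 FPKM in sham (SD, n = 3 each). Fcer1g came next, at 6.25 ± 0.898 and 4.32 ± 1.17 FPKM. The ranges of these 2 genes did not overlap with each other or with the next in either group. Fcgr1a (2.74 ± 0.305 FPKM in CCI and 1.78 ± 0.306 FPKM in sham) and Lyn (2.22 ± 0.289 and 1.46 ± 0.194 FPKM) followed, with overlapping ranges. The other 5 members had means from 0.730 to 1.20 FPKM in CCI and from 0.357 to 0.840 FPKM in sham, where each neighbour in the order overlapped with the next. Among these low members Fcgr3a was the last of the 9 in sham and the sixth in CCI.

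Within the Src family, Lyn and Fgr were minor members of the ganglion. Their shares of the summed FPKM of 8 Src-family genes were 7.03%, 6.19% and 5.81% in CCI 1, 2 and 3 and 4.84%, 3.20% and 4.66% in Sham 1, 2 and 3. Each CCI library was above each sham library, and the mean share was 6.34 ± 0.622% in CCI and 4.23 ± 0.897% in sham (SD, n = 3 each; exact two-sided permutation test, p = 0.1, the smallest it can give). Fyn and Src, kinases expressed widely and in neurons, together with Yes1 made up most of the sum. Fyn took 39.9% to 47.2% of it, Src 36.1% to 41.0% and Yes1 9.67% to 12.2%.

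**Figure D3:**
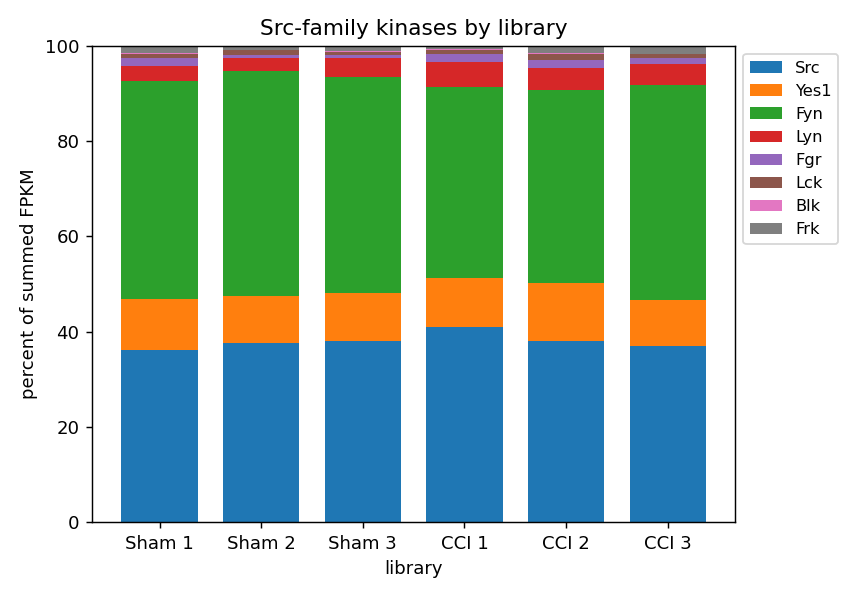
Share of each of 8 Src-family kinases in their summed FPKM (y axis, percent) in each of the 6 libraries, as stacked bars. Src and Fyn fill most of every bar, and Lyn (red) ranges from 2.78% to 3.89% in the sham libraries and from 4.46% to 5.30% in the CCI libraries.

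Few Fc receptors outside the members could be tested. Of 15 such genes in the list, 5 passed the filter and 0 were called, with 0 at an unadjusted p under 0.05 in edgeR and 0 called by DESeq2, limma or edgeR's exact test. The log2 fold change was above 0 in 4 of the 5. Fcgr2a, a further low-affinity IgG receptor, had 5.30, 6.27 and 4.23 CPM in CCI 1, 2 and 3 and 4.93, 4.59 and 5.24 CPM in Sham 1, 2 and 3. The groups overlapped, and the log2 fold change was 0.10 ± 0.18 SE (unadjusted p = 0.6 in edgeR). A row of a similar gene, LOC108348047, overlaps that of Fcgr2a, and its log2 fold change was -0.24 ± 0.31 SE.

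The IgM receptor gene Fcmr (0.17 ± 0.31 SE on the log2 scale), the cytosolic antibody receptor Trim21 (0.08 ± 0.10) and B2m, the light chain that the neonatal receptor shares with MHC class I (-0.18 ± 0.22), were not called. B2m was at 155 CPM in CCI 1 and between 256 and 290 CPM in the other 5 libraries. Without CCI 1 its log2 fold change was 0.05. Fcrl2, an Fc receptor-like gene, was at 2.28 CPM in CCI 1 and between 0.434 and 0.836 CPM in the other 5 libraries, and its log2 fold change was 0.60 with a 95% interval of -0.96 to 2.15 (unadjusted p = 0.389 in edgeR). The IgE receptor chains Fcer1a and Ms4a2 were below the filter, at no more than 0.121 and 0.342 CPM in any library. Of 12 immunoglobulin and plasma cell genes in the list 5 were found and 4 tested, and 0 were called or had an unadjusted p under 0.05 in edgeR. Ighm, the heavy chain of IgM, had 489 to 576 reads in CCI and 473 to 961 reads in sham libraries.

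Of 14 further kinases of the Src, Syk, Fes, Tec and Csk families, 9 were tested and 0 were called. In edgeR 2 had an unadjusted p under 0.05, both with changes under the limit of 0.58. They were Csk, which switches Src-family kinases off (0.29 ± 0.09 SE on the log2 scale, unadjusted p = 0.0156), and its relative Matk (0.35 ± 0.12 SE, unadjusted p = 0.0251), and for both every CCI library was above every sham library. Src (0.09 ± 0.08), Yes1 (0.09 ± 0.09), Fyn (-0.11 ± 0.08), Frk (0.09 ± 0.37), Fer (-0.25 ± 0.12) and Tec (-0.00 ± 0.19) had small log2 fold changes. Btk (0.53 ± 0.47) was not called over all libraries. Without Sham 1 the log2 fold change of this gene was 1.14 and it was called higher (unadjusted p = 0.0265 in edgeR). DESeq2, limma and edgeR's exact test called 0 of the 9.

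Some partners on both sides of Syk were higher in the CCI group at the unadjusted limits. Of 106 listed genes of the pathway outside the members, 95 were found and 61 tested. In edgeR 8 were called higher (13.1%) and 0 lower, with a median log2 fold change of 0.16. Over all rows tested 2.57% were called higher and 1.26% lower, with a median of 0.01. The adjusted p of the 8 called genes in edgeR ran from 0.0714 (Clec7a) to 0.418 (Blnk), so that none was under 0.05. At an unadjusted p under 0.05 alone, 14 were higher and 1 lower, against 1484 and 1382 of all 26663 rows tested. DESeq2 and edgeR's exact test also called 0 lower. Among adaptors and receptors that carry an ITAM or signal through one, 2 of 3 tested genes rose. Tyrobp, the adaptor DAP12 of macrophages and microglia, had 2.90, 2.22 and 2.54 CPM in CCI 1, 2 and 3 and 1.38, 1.51 and 1.26 CPM in Sham 1, 2 and 3. Clec7a, the receptor Dectin-1 that signals through Syk, had 11.4, 11.5 and 6.13 CPM in CCI and 2.05, 2.16 and 1.64 CPM in sham libraries. For both genes the groups were apart, with log2 fold changes of 0.88 ± 0.19 SE (unadjusted p = 0.00284 in edgeR) and 2.31 ± 0.28 SE (unadjusted p = 0.000114). The third, Trem2, another receptor of macrophages, had a log2 fold change of 0.06 (unadjusted p = 0.828).

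Of 25 tested effectors downstream of Syk, 5 rose (20%, against 2.57% of all rows tested). They were the adaptors Lcp2 (SLP-76; log2 fold change 0.81 ± 0.13 SE), Lat2 (1.84 ± 0.53 SE) and Blnk (0.80 ± 0.30 SE), the exchange factor Vav1 (0.69 ± 0.23 SE) and Cybb, the catalytic subunit of the phagocyte NADPH oxidase (0.66 ± 0.09 SE). Lcp2 had 6.67 to 6.74 CPM in CCI and 3.37 to 4.13 CPM in sham libraries, and Cybb had 23.8 to 26.3 CPM and 14.4 to 16.9 CPM, so that both groups were narrow and far apart. Lat2 was low, with 76, 76 and 38 reads in CCI 1, 2 and 3 and 33, 11 and 12 reads in Sham 1, 2 and 3. Its sham mean was under the filter of 0.5 FPKM, so that it was tested only because of its CCI values. The calls of Lcp2, Lat2, Cybb, Tyrobp and Clec7a held on leaving out each library in turn. That of Vav1 was lost without CCI 1, Sham 1 or Sham 2 (log2 fold changes 0.59, 0.70 and 0.52), and that of Blnk without CCI 1, CCI 2, Sham 2 or Sham 3 (0.60, 0.83, 0.58 and 0.84).

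Among 15 tested inhibitory receptors and phosphatases, 1 rose (6.67%, against 2.57% of all rows tested). It was Clec12a, an inhibitory lectin of myeloid cells, at 1.97, 1.66 and 1.14 CPM in CCI 1, 2 and 3 and 1.08, 0.593 and 0.654 CPM in Sham 1, 2 and 3. Its log2 fold change was 1.03 ± 0.34 SE (unadjusted p = 0.0205 in edgeR), and the call was lost without CCI 1, CCI 2, Sham 2 or Sham 3 (unadjusted p = 0.069, 0.0533, 0.0638 and 0.0654). The phosphatases through which Fcgr2b and related receptors act, Inpp5d (SHIP-1; 0.05 ± 0.07 SE on the log2 scale) and Ptpn6 (SHP-1; 0.37 ± 0.18 SE), were not called.

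In the wider set of 81 genes that the table's own KEGG annotation places in Fc gamma receptor-mediated phagocytosis, with the members removed, 79 were tested. In this set 2 were called higher, Vav1 and the protein kinase C gene Prkcb, and 0 were called lower. The share called higher was 2.53%, near the 2.57% of all rows tested. At an unadjusted p under 0.05 in edgeR 16 were higher and 9 lower. Its median log2 fold change was 0.04. Prkcb had 102, 244 and 121 CPM in CCI 1, 2 and 3 and 68.7, 78.4 and 77.3 CPM in Sham 1, 2 and 3. Without CCI 2 its log2 fold change was 0.58 and the call was lost. Most of the set, such as the actin regulators, is expressed in many cell types.

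Macrophage markers were in part higher in the CCI group. Of 19 markers tested, 10 were called higher (52.6%) and 0 lower in edgeR, against 2.57% and 1.26% of all rows tested. At an unadjusted p under 0.05 alone 11 were higher and 0 lower, against 1484 and 1382 of all 26663 rows. The median log2 fold change of the markers was 0.75. The 9 not called were Aif1, Adgre1, Itgam, Cd14, Cd163, Mrc1, Msr1, Mertk and Laptm5. The log2 fold change was above 0 in 18 of the 19. The summed level of the list was 261 to 359 FPKM in CCI and 145 to 164 FPKM in sham libraries, and Lyz2, at a mean of 147 FPKM over all libraries, made up most of it. Csf1r, the growth factor receptor of macrophages, had 63.0, 56.5 and 44.8 CPM in CCI 1, 2 and 3 and 31.5, 27.3 and 38.7 CPM in Sham 1, 2 and 3. The groups were apart (log2 fold change 0.75 ± 0.17 SE, unadjusted p = 0.00354, adjusted p = 0.208 in edgeR). The part of macrophage number or state in the members' values was not tested.

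Markers of other cell types were low or, apart from muscle, were not called. The 12 T and NK cell markers and the 8 B cell markers were all below the filter, with summed levels of 0.649 to 1.31 FPKM and 0.758 to 1.58 FPKM over all libraries. Cd3e, which defines T cells, had between 0 and 8 reads and Ms4a1, which defines B cells, between 5 and 24 reads in a library. Of 6 tested neutrophil markers and 2 tested mast cell markers 0 were called or had an unadjusted p under 0.05 in edgeR. Of 7 tested endothelial, 6 satellite glia, 7 Schwann cell, 5 fibroblast and 10 sensory neuron markers 0 were called, and at an unadjusted p under 0.05 in edgeR there were 2 higher and 3 lower sensory neuron markers and 0 of the others. Of 7 skeletal muscle markers 4 were called lower, against 1.26% of all rows tested, with Sham 1 at 7943 reads of Acta1 against 329 to 1164 in the other libraries. The summed level of these markers in Sham 2, 5.28 FPKM, lay within the CCI range of 4.37 to 9.52 FPKM. These 4 calls are not given without Sham 1.

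**Figure D4:**
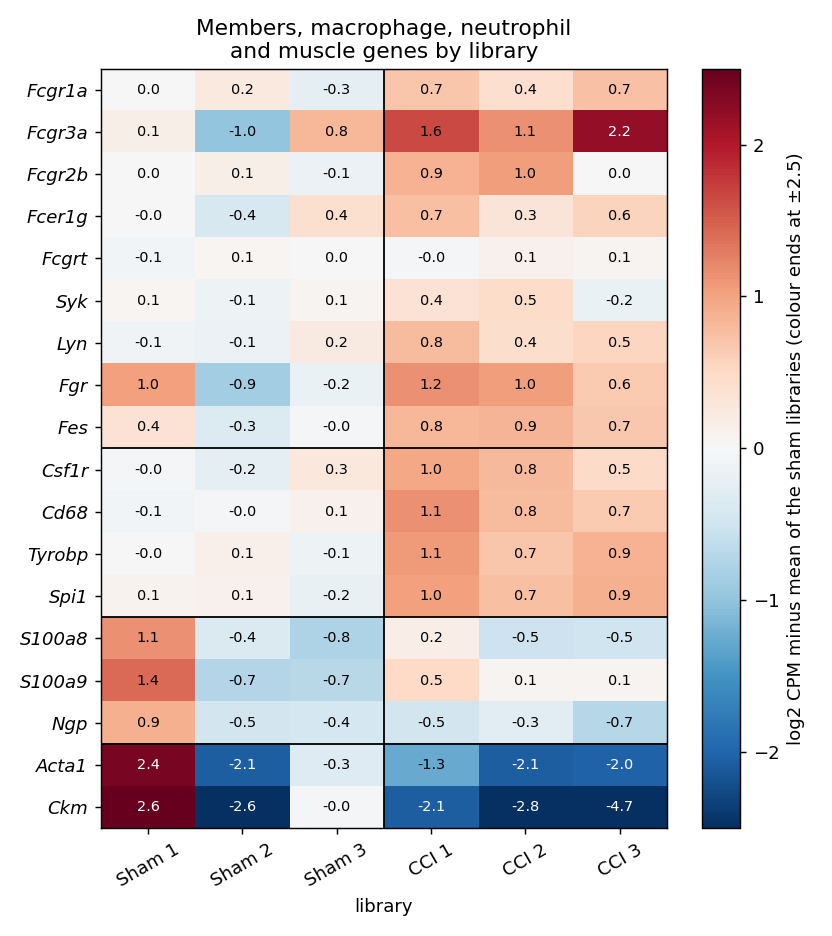
Log2 CPM minus the mean of the sham libraries (colour and number, colour scale ending at ±2.5) of the 9 members and of macrophage, neutrophil and muscle genes (rows) in each library (columns). The macrophage genes shown, Csf1r, Cd68, Tyrobp and Spi1, are all called genes and are higher in all CCI libraries. Sham 1 is high in Fgr and in the neutrophil and muscle genes.

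Each member was also set against Csf1r in the same library, as a ratio of FPKM. Fcgr1a was at 0.223 ± 0.0553 of Csf1r in CCI and 0.251 ± 0.0841 in sham, Lyn at 0.178 ± 0.0274 and 0.198 ± 0.0120, and Fes at 0.0962 ± 0.0110 and 0.0951 ± 0.0244 (SD, n = 3 each). Exact two-sided permutation tests on the log2 scale gave p = 0.8, p = 0.3 and p = 1 for these 3 genes. Fcgr3a was at 0.0887 ± 0.0477 and 0.0461 ± 0.0195 of Csf1r, a log2 difference of 0.91 with overlapping groups (exact two-sided permutation test, p = 0.2).

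Fcgrt and Syk were lower relative to Csf1r in every CCI library than in every sham library. The FPKM of Fcgrt was 0.738, 0.907 and 1.11 times that of Csf1r in CCI 1, 2 and 3 and 1.43, 1.81 and 1.24 times in Sham 1, 2 and 3. Syk was at 0.0750, 0.0896 and 0.0729 of Csf1r in CCI and 0.122, 0.124 and 0.0997 in sham libraries. The log2 differences were -0.71 and -0.54, each with p = 0.1 in an exact two-sided permutation test, the smallest it can give, and an adjusted p of 0.4 over the 12 ratios computed. For Fcgr2b, Fcer1g and Fgr the groups overlapped, with log2 differences of -0.11, -0.21 and 0.20 (exact p = 0.7, 0.3 and 1). The difference of Fgr was 0.73 without Sham 1, -0.12 without Sham 2 and -0.01 without Sham 3. On leaving out 1 library the difference ranged from -0.32 to 0.08 for Fcgr2b, from -0.40 to 0.10 for Fcgr1a, from -0.10 to 0.24 for Fes and from 0.50 to 1.21 for Fcgr3a. The sign changed without Sham 2 for Fcgr1a, without Sham 2 or CCI 3 for Fcgr2b, and without Sham 2, Sham 3 or CCI 3 for Fes. These ratios compare a member with 1 macrophage gene that itself rose, and they are not levels per cell.

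**Figure D5:**
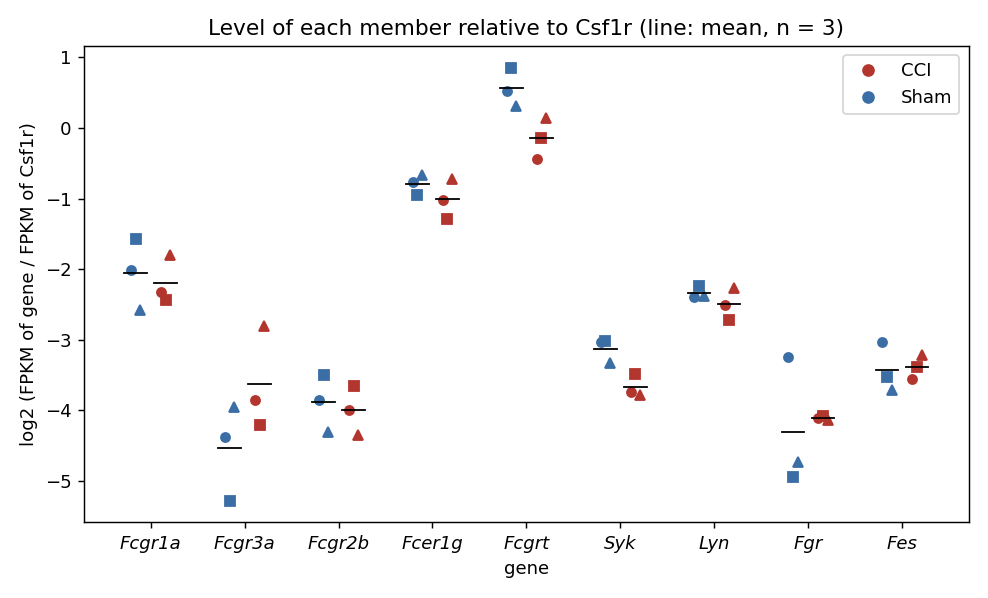
Log2 of the FPKM of each member over the FPKM of Csf1r (y axis) in the CCI (red) and sham (blue) libraries, where circles, squares and triangles are libraries 1, 2 and 3 and lines are means. Fcgrt and Syk lie lower in all CCI libraries, Fcgr3a has a higher mean in CCI with overlapping groups, and Fgr is spread widely in sham.

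Genes whose pattern over the 6 libraries was most like each member were sought among 13587 other protein-coding genes, by the root mean square difference of centred log2 CPM. For Fcgr1a they were Nnat, Casp6 and AC094348, at differences of 0.07 to 0.11 on the log2 scale. For Fcgr2b they were Calb1, AABR07026654 and Epha10 (0.08 to 0.11), and for Fcgr3a AABR07073134, Rpl35a and Ripk3 (0.37 to 0.43), the largest differences for any member. For Fcer1g they were AABR07031533, Fgd2 and Vav1 (0.09 to 0.11), and for Fcgrt Cnn3, Tef and Furin (0.02 in each case).

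Of the kinases, Syk was nearest to Hspbap1, Surf6 and Il12rb2 (0.06 to 0.07) and Lyn to Galnt15, Adamts4 and Arsb (0.08 to 0.09). Fgr was nearest to Gmfg, Cd180 and Gpr139 (0.22 to 0.25), and Fes to Cyth4, Lrrc25 and Anxa3 (0.09 to 0.10). With 6 libraries from 2 groups, and so many genes to choose from, such likeness is a description of these libraries alone.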

How the data were processed

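RNA of 3 CCI and 3 sham DRG samples was analysed from 1 table. The authors mapped reads with HISAT2 2.0 and assembled transcripts with StringTie 1.3.0 according to the submitters' processing notes; the methods name the rat genome V101. The count values are whole reads per gene row as deposited, and the FPKM values are those of the authors. The methods name StringTie and edgeR for estimating expression levels, which were then scaled to FPKM. Strand of counting is not given in the sources used here. Coordinates are those of the table; promoters are RefSeq's, on another build (GRCr8).

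Counts of 26663 rows, those whose FPKM averaged 0.5 or more, were fitted with edgeR 4.0.16 (TMM factors, quasi-likelihood test), with groups from the labels and no block. Printed CPM are TMM-scaled. Total counts of 75423546 to 87615743 set the counting precision, and the level given for 3 reads covers counting error only. The 95% intervals and p-values come from edgeR's fit and carry the spread between these rats. Ratios were compared with exact permutation tests (scipy 1.17.1). Alternatives were DESeq2 1.42.0 and limma 3.58.1 on log2(FPKM + 1) or log2(FPKM + 0.1), other filters and scaling, protein-coding rows, summed rows, a replicate block and leaving out each library. The quasi-likelihood fit and a limma fit were also run on simulated data, with planted changes larger than that of any member. Changes of the members' size and the other fits were not simulated.

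The members, lists and tests were chosen with earlier results of these data known. The genes named are all members, called genes of the pathway lists, tested Fc receptors and kinases of the lists, marker genes, rows overlapping a member and the 3 genes nearest each member in pattern. Trem2, Inpp5d, Ptpn6, Ighm and the marker genes given by library were picked after their values were seen. The KEGG set, the comparison of promoters, edgeR's exact test and edgeR's filterByExpr were added after the data were seen. The other RNA types of the study were not analysed here, and 1 gene is not reported here and was left out of the lists and shares.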

Additional observations from a re-analysis of the deposited data

How the results depend on the processing

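The share of all rows called higher, 2.57%, is that of the main edgeR fit, and the shares in the alternatives are not given here. The number of members called higher was 5 with DESeq2, with RLE factors, without a filter, among protein-coding rows and with filterByExpr. It was 4 with summed rows, where Lyn was not called, and 4 with edgeR's exact test, where Fcgr2b was not called. It was 2 when rows had to average 1 FPKM, under which 5 of the 9 members were not tested. It was 1 with limma on log2(FPKM + 1) and 3 with limma on log2(FPKM + 0.1). A pseudocount of 1 shrinks the fold changes of genes as low as these. On leaving out 1 library it ranged from 2 to 4, with 2 without CCI 1 (Fcgr3a and Fes) and 3 without CCI 3, Sham 1 or Sham 2. At an adjusted p under 0.05 the number was 0 in all fits but DESeq2, where it was 1. The other pathway genes called higher numbered 4 with limma on log2(FPKM + 1) and 6 to 10 under the other alternatives, and 0 were called lower in any. Every member kept a log2 fold change above 0 in each alternative run. The replicate numbers did not pair the samples (correlations of same-numbered deviations -0.01, -0.02 and -0.05), and with a replicate block 5 members and 8 other pathway genes were called higher. The edgeR exact test and filterByExpr were chosen after seeing the data.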
